A study of Mus musculus with 8 samples.

Results

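Newly formed oligodendrocytes were set against mature oligodendrocytes in single-cell RNA sequencing of mouse prefrontal cortex (PFC) and striatum. The members were taken from the cell type names that the authors deposited for each cell, with 460 cells named newly formed oligodendrocytes and 4039 named mature oligodendrocytes. These 4499 cells came out of 23687 annotated cells, 8997 of the PFC and 14690 of the striatum. The unique molecular identifiers (UMIs, 1 per captured transcript molecule) of each gene were added up for each type and library, and both types were compared within the library. Each of the 8 libraries held at least 10 cells of each type, with 22 to 102 newly formed and 67 to 947 mature cells.

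The libraries were made from male C57BL/6N mice that were WT or carried 1 copy of Setd1a disrupted by a CRISPR-Cas9 frameshift in all their cells (Setd1a+/-), a model of schizophrenia risk. There were 4 groups of 2 libraries: PFC WT, PFC Setd1a+/-, striatum WT and striatum Setd1a+/-. The tissue of 2 mice, given as 8 to 10 weeks old in the sample labels, was pooled in each library, and the labels list no treatment. The study's methods give an older age than the labels. The striatal samples carry the label nucleus accumbens, while the study describes its dissection as dorsal and ventral striatum. Papain digestion was shorter for the PFC than for the striatum, so that tissue and digestion cannot be told apart. Setd1a itself gave 9 UMIs in newly formed and 57 in mature cells over all libraries and was too low to be tested. Its level in newly formed cells was 13.0 and 0 CPM (UMIs of a gene scaled to the same total in every sum) in PFC WT, 3.40 and 0 in PFC Setd1a+/-, 5.21 and 9.15 in striatum WT, and 0 and 19.9 CPM in striatum Setd1a+/-. In mature cells it was 4.20 and 10.2 CPM in PFC WT, 3.19 and 1.81 in PFC Setd1a+/-, 6.61 and 18.5 in striatum WT, and 6.55 and 7.53 CPM in striatum Setd1a+/-, so the genotypes overlapped in newly formed cells of each tissue and in mature cells of the striatum. In mature cells of the PFC they did not overlap, and the mature level was higher in WT than in Setd1a+/- for all 4 pairs of libraries with the same tissue and replicate number.

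The sums held 43581 to 336038 UMIs in newly formed and 158863 to 2336295 in mature cells. Striatum Setd1a+/- replicate 2 had the fewest cells of both types and stood apart in several of the values below. Some genes were far lower in both PFC replicate 1 libraries than in the others, in both types alike. Gstp1, for example, gave 2.59 and 10.2 CPM there in newly formed cells against 131.5 to 218.5 CPM in the other 6 libraries. Comparing types within a library leaves such a shift out. Any pair of libraries shared 1 to 24 annotated barcodes, and 13 of the shared barcodes were newly formed or mature cells in both libraries.

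Oligodendrocytes arise from dividing progenitors. A progenitor leaves the cell cycle, passes through a short-lived premyelinating stage in which it extends many fine processes, and then either dies or wraps axons with myelin, a compacted membrane rich in cholesterol and galactolipids. The premyelinating stage is known for the receptor Gpr17, the ligand Bmp4 and the phosphodiesterase Enpp6. The mature cell is known for myelin proteins such as Mog, Mag, Mobp and Mal. In adult gray matter new oligodendrocytes continue to form, and most premyelinating cells found there are of recent origin.

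The sequences upstream of the gene start are shown for the genes that most separated the stages, 2 in each direction. They are the members with the largest difference whose window lay outside the annotated gene. Each is the 250 bases before the RefSeq start (GRCm38.p6), read 5′ to 3′ on the strand of the gene. Capitals mark matches on either strand to the E-box CANNTG bound by basic helix-loop-helix factors such as Olig2, the SOX core ACAATG or ACAAAG, the TCF core ATCAAAG or the MYRF core CTGGNAC. Bmp4 lies at chr14:46390670-46390919 and Tnr at chr1:159523519-159523768, and both were higher in newly formed cells. Anln lies at chr9:22389207-22389456 and Mal at chr2:127656696-127656945, and both were higher in mature cells.
Bmp4: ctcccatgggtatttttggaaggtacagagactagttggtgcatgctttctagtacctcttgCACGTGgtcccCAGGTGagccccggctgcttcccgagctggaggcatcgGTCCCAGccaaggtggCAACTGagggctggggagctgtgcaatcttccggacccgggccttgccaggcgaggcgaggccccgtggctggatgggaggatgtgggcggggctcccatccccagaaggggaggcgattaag
Tnr: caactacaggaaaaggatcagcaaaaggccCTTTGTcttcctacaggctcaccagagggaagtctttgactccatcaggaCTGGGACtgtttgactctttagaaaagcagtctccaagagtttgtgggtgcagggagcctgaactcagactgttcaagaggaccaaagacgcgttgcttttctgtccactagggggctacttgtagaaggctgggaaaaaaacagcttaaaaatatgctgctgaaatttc
Anln: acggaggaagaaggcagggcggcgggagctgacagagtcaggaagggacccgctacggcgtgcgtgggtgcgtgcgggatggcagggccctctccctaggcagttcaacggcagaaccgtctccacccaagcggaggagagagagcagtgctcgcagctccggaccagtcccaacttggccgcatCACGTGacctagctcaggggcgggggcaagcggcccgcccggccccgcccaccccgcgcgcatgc
Mal: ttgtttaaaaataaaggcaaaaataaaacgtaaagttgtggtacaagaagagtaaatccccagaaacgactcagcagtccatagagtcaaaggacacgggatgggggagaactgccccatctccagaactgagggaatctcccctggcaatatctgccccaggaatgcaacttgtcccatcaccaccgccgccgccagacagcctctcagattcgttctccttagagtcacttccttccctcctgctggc
The Bmp4 window, on the minus strand, held 3 E-boxes and 1 MYRF core. The Tnr window, on the plus strand, held 1 SOX core and 1 MYRF core. The Anln window (minus strand) held 1 E-box, and the Mal window (minus strand) held no match to the 4 motifs. No matches of different motifs overlapped in these windows. Of 27025 genes with a window, 66.0% held an E-box, 25.5% a SOX core, 3.23% a TCF core and 16.0% a MYRF core. Among the 15 genes with the largest difference toward newly formed cells, 14 had a window, of which 7 held an E-box, 4 a SOX core, 1 a TCF core and 3 a MYRF core. Among the 15 with the largest difference toward mature cells, 10 had a window, of which 8 held an E-box, 6 a SOX core, none a TCF core and 1 a MYRF core. These are matches to short letter patterns, given without a test.

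The cell types were first described by their markers. The authors named the clusters from known markers, so these shares describe the types and cannot test the names. To compare cells at equal depth, each cell was thinned to 1000 UMIs, which kept all 460 newly formed and 4039 mature cells. Gpr17 was then found in 60.0% of newly formed cells (95% Wilson interval 55.5 to 64.4), 0.470% of mature cells and 0.531% of microglia, a type that should lack it. Its share in progenitors was 23.4%. Bmp4 was found in 46.3% of newly formed cells (41.8 to 50.9), in none of 4039 mature cells and in 1.58% of progenitors. A count of 0 among these mature cells allows up to 0.0743% of cells with a UMI at this depth, and before thinning 0.149% had one. Fyn, a kinase of the Src family that acts in process extension, was found in 90.0% of newly formed and 2.08% of mature cells. In the other direction Ermn was found in 1.30% of newly formed and 89.3% of mature cells, Mobp in 4.35% and 95.9% (3.32% of microglia), Mal in 2.61% and 93.1%, and Mog in 17.6% and 87.2%. Transcripts of Mbp, a main protein of myelin, were in most cells of both types, in 76.7% and 99.98%. Pdgfra, the growth factor receptor of progenitors, was in 0.435% of newly formed cells against 56.9% of progenitors. Before thinning, Gpr17 was found in 85.7% of newly formed and 1.56% of mature cells. All intervals cover counting error only.

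At the same depth, 68.3% of newly formed cells (54.5 to 78.1% by library) had a transcript of at least 1 of Gpr17, Bmp4 and Neu4 and none of Mog, Opalin and Mobp. Both sets were found together in 17.6% of newly formed cells, with 36.4% in striatum Setd1a+/- replicate 2 as the highest library. Of the rest, 5.87% had the late set alone, close to the 4.04% of astrocytes and 3.85% of microglia that did, and 8.26% had neither. Among mature cells 99.3% had the late set alone and 0.619% had both. The early set alone was also found in 55.4% of progenitors (49.1 to 60.7% by library), 44.6% of which had Neu4, and both sets together in 2.02%.

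The clusters were drawn from the same transcripts that are compared here, so the difference between the types is a description and its p-values only say how well a difference repeated over libraries. A gene was called where the edgeR quasi-likelihood test gave a Benjamini-Hochberg adjusted p (FDR) under 0.05 and the levels differed at least 2-fold. Of 5978 genes tested, 849 (14.2%) were called higher and 869 (14.5%) lower in newly formed cells. The CPM of the 8 libraries did not overlap between types in 463 genes (7.75%) that were higher in newly formed cells and in 673 genes (11.3%) that were lower. At least 16-fold differences numbered 134 and 145. The split between higher and lower calls depended on scaling. Newly formed cells also spread their UMIs over more genes, and the part of this in the split was not tested. With library size alone in place of the TMM factors the median log2 fold over all genes moved from 0.01 to 0.48 and 71.5% of calls were higher in newly formed cells, against 49.4%. None of the 1718 called genes changed sign with it. The filter on low counts keeps a gene that is high in 1 type alone, so that counts over tested list members are descriptions. Each list count over both tissues below is to be set beside the 14.2% higher and 14.5% lower of all genes tested. Fold changes below are relative to the TMM scale and are given as log2(newly formed/mature) ± SE from the fit over 8 libraries. This SE was derived from the F statistic of the test and can understate counting error where 1 type had few UMIs. CPM values are on the same scale.

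The difference was also fitted in each tissue alone. In the PFC, 930 of 6984 genes (13.3%) were called higher and 1109 (15.9%) lower in newly formed cells. In the striatum, 528 of 3633 genes (14.5%) were called higher and 600 (16.5%) lower, and without Setd1a+/- replicate 2 the numbers were 878 and 1030 of 7236. Of the 930 genes called higher in the PFC, 485 could be tested in the striatum, 485 had the same sign and 427 were called there. Of the 1109 called lower, 647 could be tested, 643 had the same sign and 529 were called. The 427 shared calls were 45.9% of the PFC list and 80.9% of the striatum list, and the 529 were 47.7% and 88.2%. No gene was called in opposite directions. These tissues share no library, but the authors named the clusters of both from known markers.

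**Figure D1:**
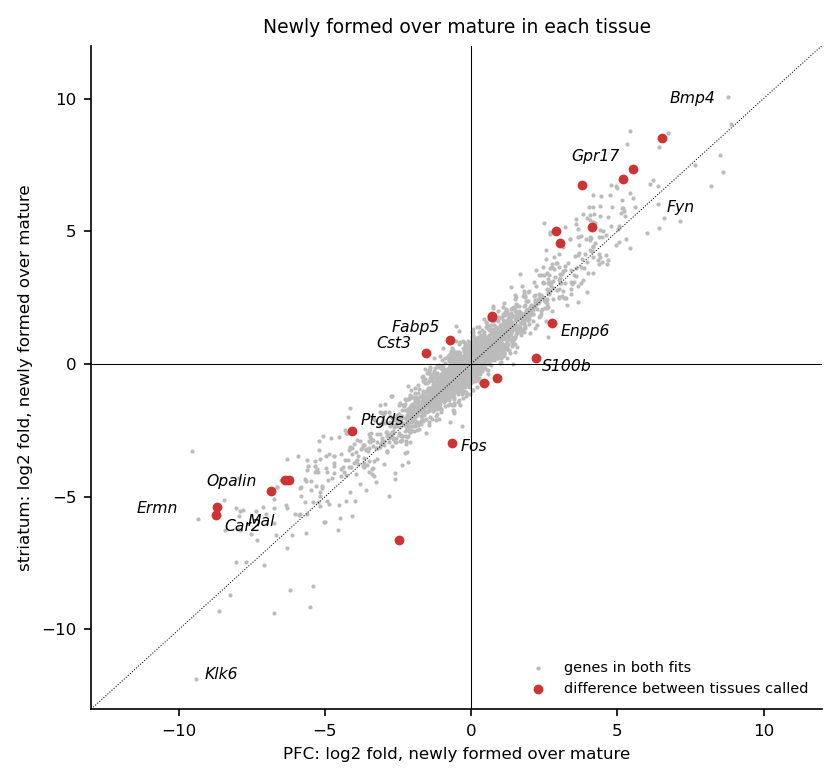
Log2 fold of newly formed over mature oligodendrocytes in the PFC (horizontal axis) against the striatum (vertical axis) for the 3612 genes in both fits, with the dotted line marking equal folds. Of these, 3154 genes had the same sign in both tissues, and red points are genes whose difference was called between tissues. Klk6, with no UMI in newly formed cells, is placed by the fit.

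Of 22 newly formed markers 21 could be tested, of which 20 were higher and 1 was lower in newly formed cells, where 14.2% and 14.5% of all genes tested were. Their median log2 fold was 3.74 against 0.01 over all genes. Bmp4 (chr14:46383520-46390669, GRCm38) ranged from 516.5 to 854.8 CPM (median 647.4) over the newly formed libraries and from 0 to 4.78 CPM (median 0.330) over the mature ones. Its groups lay far apart in every library, with 6 UMIs in all mature cells together, and the log2 fold was 9.38 ± 0.24. Gpr17 ranged from 719.9 to 1216 CPM (median 961.4) in newly formed and from 0 to 27.1 CPM (median 13.5) in mature cells. No library came near overlap, and the log2 fold was 6.35 ± 0.25. Fyn (chr10:39368855-39565381) ranged from 1720 to 3009 CPM (median 2315) against 23.4 to 52.7 CPM (median 30.9), with a log2 fold of 6.21 ± 0.13. Enpp6, which cleaves choline phospholipids, kept a substantial level in mature cells, at 144.4 to 336.6 CPM (median 203.8) against 512.2 to 1563 CPM (median 999.6) in newly formed cells. Its log2 fold of 2.18 ± 0.19 was thus smaller than those of Bmp4 and Gpr17. The noncoding RNA 9630013A20Rik ranged from 750.0 to 2071 CPM (median 1456) in newly formed and from 0 to 199.1 CPM (median 16.5) in mature cells, the highest mature value being in PFC Setd1a+/- replicate 1. Bcas1, a protein of early myelinating cells, had a log2 fold of 2.45 ± 0.10, and Itpr2, a calcium channel of the endoplasmic reticulum, one of 4.15 ± 0.19. Tnfaip6, a hyaluronan-binding protein, went the other way, with 5.19 to 79.5 CPM (median 12.0) in newly formed and 692.5 to 1038 CPM (median 872.4) in mature cells.

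The other genes with the largest differences toward newly formed cells included secreted and matrix proteins, kinases and transcription factors. Matn1 gave 2 and Mycl 3 UMIs in mature cells, against 391 and 285 UMIs in newly formed cells. On the TMM scale, the ratio of UMIs pooled over all libraries was 969 for Matn1, a matrilin (counting interval 266 to 8027). It was 471 for Mycl, a relative of Myc (159 to 2296). These are not fitted folds, and the fit without striatum Setd1a+/- replicate 2 gave log2 folds of 9.01 and 8.16. Brca1, known for DNA repair, ranged from 208.3 to 404.3 CPM (median 307.9) against 0 to 7.53 CPM (median 0.863), a log2 fold of 7.75 ± 0.24. Its level in progenitors was 6.75 CPM at the median, so high Brca1 transcript was found at the intermediate stage. Neu4, a sialidase, had a log2 fold of 7.42 ± 0.24 and Ppfibp1, a liprin, one of 7.02 ± 0.24. Pak4, a kinase of the actin pathway, had one of 5.78 ± 0.15. Sh3bp4 and Susd4 had log2 folds of 5.86 ± 0.24 and 5.62 ± 0.26.

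**Figure D2:**
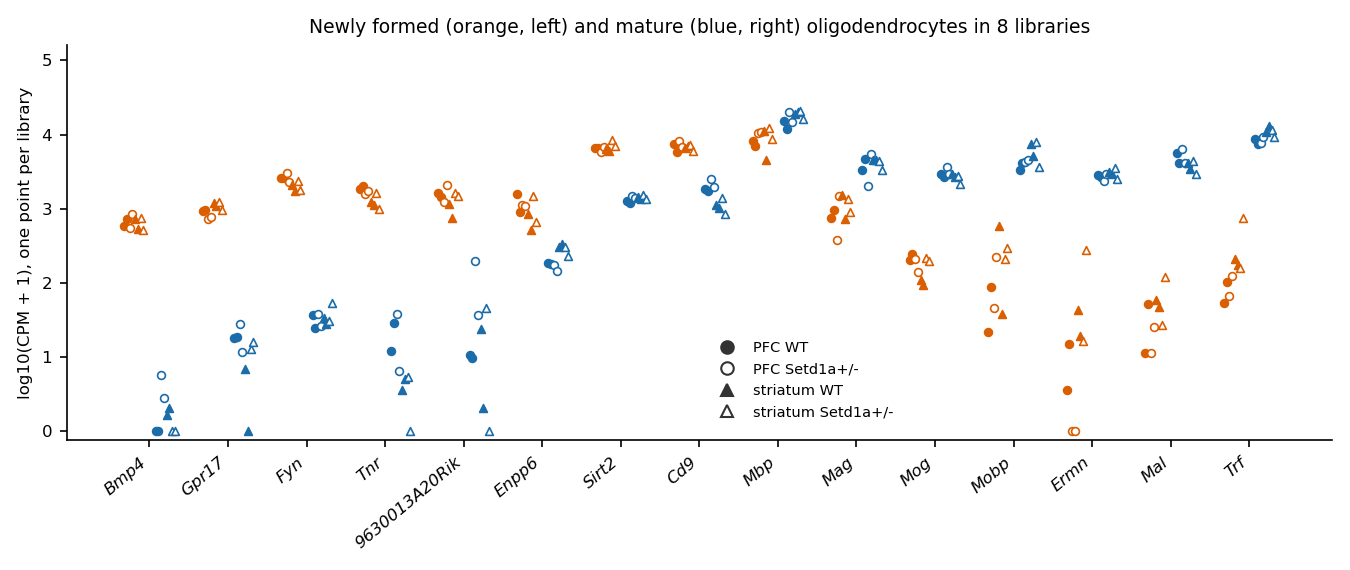
Levels of 15 genes as log10(CPM + 1), 1 point per library and cell type, with newly formed cells in orange, mature cells in blue and tissue and genotype by symbol. Bmp4, Gpr17 and Fyn lie far higher in newly formed cells and Mog, Mal and Trf far lower, whereas the 2 types of cells overlap for Mbp.

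Toward mature cells the largest differences were in genes that newly formed cells all but lacked. Klk6, a secreted protease, had no UMI in 460 newly formed cells and 3691 UMIs in mature cells, where it ranged from 113.3 to 1084 CPM (median 436.1). Taking the 3 counts that a count of 0 allows over all newly formed sums, it was at least 248.3-fold higher in mature cells on the TMM scale. Cyp2j12, a cytochrome P450, had no UMI against 846 and was at least 56.9-fold higher. Anln (chr9:22332012-22389188), an actin scaffold that also organises septins in myelin, gave 3 UMIs in newly formed cells against 2800 (188-fold on the TMM scale, interval 64.4 to 913.9). C030029H02Rik gave 3 against 3181 UMIs (214-fold, 73.2 to 1038), Prr5l 3 against 2321 (156-fold, 53.4 to 757.7), Prr18 1 against 1004 (203-fold, 36.3 to 8011) and Itgb4, an integrin, 1 against 951 (192-fold, 34.4 to 7589). These folds are ratios of UMIs pooled over all libraries, and their intervals cover counting error only. Serpinb1a, an inhibitor of proteases, had a log2 fold of -7.79 ± 0.25, Tppp3, a tubulin-binding protein, one of -6.82 ± 0.23, and Pdlim2 one of -6.59 ± 0.22.

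Of 30 mature markers 29 were tested, and 27 were lower in newly formed cells, with a median log2 fold of -5.19. Mal (chr2:127633226-127656695) ranged from 10.2 to 119.2 CPM (median 35.9) in newly formed and from 2913 to 6358 CPM (median 4160) in mature cells, a log2 fold of -7.15 ± 0.27. Ermn, an actin-binding protein of late oligodendrocytes, ranged from 0 to 278.1 CPM (median 14.7) against 2340 to 3585 CPM (median 2896). The value of 278.1 CPM was that of striatum Setd1a+/- replicate 2, whereas the other 7 newly formed libraries reached at most 41.7 CPM, and the log2 fold was -7.05 ± 0.37 with that library and -7.98 without it. Car2, a carbonic anhydrase, behaved likewise, with 576.0 CPM in that library, at most 156.2 CPM in the others and a log2 fold of -7.02 ± 0.44 (-7.71 without it). The 22 newly formed cells of this library thus had the highest level of both genes. S100b, a calcium-binding protein, was the member called higher in newly formed cells (1.22 ± 0.24), with values that differed by tissue and are given below. Pllp, a plasma membrane proteolipid, was the member not called.

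Myelin proteins were not uniformly low in newly formed cells. Of 20 listed genes 18 were tested, 13 of which were lower, 2 were higher and 3 were not called, with a median log2 fold of -1.95. With library size alone 11 were lower and 2 higher. Mog, a surface glycoprotein of the outermost myelin, ranged from 91.5 to 243.5 CPM (median 200.4) in newly formed and from 2175 to 3604 CPM (median 2824) in mature cells, a log2 fold of -4.02 ± 0.14. Mobp, which lies in compact myelin, had a larger difference of -5.19 ± 0.29, and Mag, an adhesion protein of the inner myelin layer, a smaller one of -2.05 ± 0.11. Mbp, the myelin basic protein whose mRNA travels into the processes, ranged from 4473 to 12259 CPM (median 9570) against 11987 to 20437 CPM (median 17592). The groups overlapped slightly although mature cells were higher in all 8 libraries, and the log2 fold of -0.94 ± 0.13 was under the 2-fold limit. It passed that limit with cells thinned to 1000 UMIs (-1.20), with no filter on low counts (-1.10) and without PFC Setd1a+/- replicate 2 or striatum Setd1a+/- replicate 1 (-1.02 in each). Cnp, a phosphodiesterase of uncompacted myelin, gave -0.92 ± 0.09 and was likewise not called, and it passed the limit with no filter on low counts (-1.09) and without striatum Setd1a+/- replicate 1 (-1.03). Levels of Sirt2, a deacetylase of the myelin sheath, went the other way, at 5861 to 8514 CPM (median 6500) in newly formed and 1199 to 1550 CPM (median 1376) in mature cells. The tetraspanin Cd9 behaved similarly, with 5867 to 8259 CPM (median 6924) against 843.0 to 2477 CPM (median 1558). Both were higher in newly formed cells of every library, with log2 folds of 2.28 ± 0.08 and 2.22 ± 0.12.

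Transcription factors divided between the stages. Of 41 listed factors with a row in the matrices, 27 were tested. Of these 10 were higher and 7 lower, where 14.2% and 14.5% of all genes tested were, and 10 were not called. The median log2 fold was -0.17, and it turned positive (0.31) with library size alone. Tcf7l2, which partners with beta-catenin and is needed for differentiation, ranged from 281.9 to 623.3 CPM (median 393.9) in newly formed and from 15.1 to 39.0 CPM (median 29.8) in mature cells. Its groups did not overlap, its log2 fold was 3.74 ± 0.14, and progenitors had 51.8 CPM at the median. Sox4 and Sox6, SOX factors that hold back late differentiation, had log2 folds of 4.95 ± 0.24 and 6.51 ± 0.23. For Sox6 the level in newly formed cells (median 242.0 CPM) was close to that of progenitors (180.2 CPM), with 1.55 CPM in mature cells. Nkx2-2 had a log2 fold of 2.15 ± 0.14, Sox2 2.33 ± 0.18, Zfp488 2.82 ± 0.26 and Olig2 1.08 ± 0.18. Myrf, the factor that switches on myelin genes, was not called, with 88.3 to 130.2 CPM (median 104.0) in newly formed and 120.4 to 185.6 CPM (median 144.3) in mature cells. Its ranges overlapped, although progenitors had 10.5 CPM at the median, below every newly formed library. Among factors lower in newly formed cells, Etv1 ranged from 7.78 to 54.9 CPM (median 19.6) against 801.5 to 1618 CPM (median 1054), a log2 fold of -5.78 ± 0.18. Nkx6-2, a homeobox repressor of myelinating cells, had -3.79 ± 0.29, Hdac11 -2.67 ± 0.14, Zfp536 -2.39 ± 0.26, Nfix -1.82 ± 0.15 and St18 -1.48 ± 0.21.

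Most of the called enzymes of myelin lipids were lower in newly formed cells. Of 37 genes of galactolipid, sphingolipid and fatty acid synthesis 31 were tested, with 11 lower, 2 higher and 18 not called, and a median of -0.62 (-0.14 with library size alone). Ugt8a, which makes galactosylceramide, ranged from 137.2 to 378.1 CPM (median 259.0) against 639.8 to 1034 CPM (median 719.5), with no overlap and a log2 fold of -1.53 ± 0.11. Fa2h, which hydroxylates its fatty acids, had -1.40 ± 0.14 (-0.93, under the 2-fold limit, with library size alone), Cers2, the ceramide synthase of very long chains, -2.62 ± 0.12, and Scd1, a fatty acid desaturase, -3.67 ± 0.32. Of 24 cholesterol synthesis genes 21 were tested, of which 5 were lower and 1 was higher, where 14.5% and 14.2% of all genes tested were. The other 15 were not called, and the list median was -0.50. With library size alone 3 of the 21 were lower and 3 higher, and the median was -0.02. In the PFC alone 10 of 22 were lower and 0 higher, where 15.9% and 13.3% of all genes tested there were. In the striatum alone 3 of 16 were lower and 2 higher, against 16.5% and 14.5%. Over both tissues Hmgcs1, Cyp51, Ebp, Sc5d and the regulator Srebf2 were the 5 lower genes, with log2 folds from -1.86 (Ebp) to -1.05 (Hmgcs1). The calls of Hmgcs1 and Cyp51 were lost without PFC WT replicate 1 (-0.86 and -0.95) or PFC Setd1a+/- replicate 1 (-0.86 and -0.90), with library size alone (-0.57 and -0.60) and without the library term (-0.91 and -0.96).

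The cytoskeleton showed 2 opposed sets. Of 48 listed genes 42 were tested, with 10 higher, 15 lower and 17 not called, and a median of -0.14. With library size alone 13 were higher and 12 lower, and the median turned to 0.33. The higher set held tubulins and proteins of growing processes. Tuba1a ranged from 7171 to 13985 CPM (median 9719) against 2232 to 4079 CPM (median 2898), and Tubb2b had a log2 fold of 4.87 ± 0.23. Marcks, an actin crosslinker at the membrane, ranged from 603.7 to 1709 CPM (median 1256) against 21.6 to 176.8 CPM (median 38.7), a log2 fold of 4.71 ± 0.23. Map1b, a microtubule protein of growing axons and processes, gave 2.85 ± 0.14, and Pfn2, a profilin, 2.85 ± 0.12. The lower set held the stathmins Stmn1 and Stmn4, which bind free tubulin. Stmn1 ranged from 31.1 to 238.4 CPM (median 90.4) in newly formed and from 3312 to 4998 CPM (median 4097) in mature cells, with no overlap and a log2 fold of -5.33 ± 0.22. Stmn4 gave -5.23 ± 0.27, Gsn, the actin-severing gelsolin, -4.24 ± 0.15, and Sept4, a septin, -3.37 ± 0.13. Tubulins went both ways, with Tuba1a and Tubb2b higher and Tubb3 (-2.24 ± 0.20) lower in newly formed cells.

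Of 29 listed matrix genes 18 were tested, of which 10 were higher in newly formed cells, 3 were lower and 5 were not called, with a median log2 fold of 2.32. In the PFC alone 11 of 20 were higher and 5 lower, where 13.3% and 15.9% of all genes tested there were. Tnr (chr1:159523769-159931729), the glycoprotein tenascin-R, ranged from 993.2 to 2049 CPM (median 1601) in newly formed and from 0 to 36.6 CPM (median 4.89) in mature cells. Its log2 fold was 7.22 ± 0.25, and its level in newly formed cells was above that of progenitors (776.0 CPM at the median) in all 8 libraries. The chondroitin sulfate proteoglycans brevican (Bcan) and versican (Vcan) had log2 folds of 6.03 ± 0.20 and 5.53 ± 0.27. Vcan was lower in newly formed cells than in progenitors in all 8 libraries, with medians of 321.5 and 471.2 CPM. Timp4, an inhibitor of matrix metalloproteinases, had a log2 fold of 6.44 ± 0.17. Col9a3, a collagen chain, ranged from 79.5 to 567.8 CPM (median 354.3) against 15.1 to 71.7 CPM (median 41.6), without overlap. Spock3, a testican, was the matrix gene with the largest difference toward mature cells (-5.33 ± 0.32).

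Receptors and ligands fell on both sides, with 9 of 25 tested genes higher, 10 lower and 6 not called, and a median of -0.07. With library size alone 10 were higher and 6 lower, and the median became 0.40. A pair of related receptors stood on opposite sides. Gpr37l1 ranged from 377.4 to 857.1 CPM (median 719.6) in newly formed and from 0 to 54.2 CPM (median 18.0) in mature cells, while Gpr37 ranged from 0 to 57.1 CPM (median 28.6) against 489.3 to 1175 CPM (median 686.2). Neither pair of ranges overlapped, and the log2 folds were 4.95 ± 0.17 and -4.85 ± 0.23. The AMPA receptor subunit Gria2 was higher in newly formed cells (3.27 ± 0.15), as were the guidance ligand Sema5a (3.51 ± 0.18) and the death receptor Tnfrsf21 (3.93 ± 0.30). The lysophospholipid receptors Lpar1 (-3.68 ± 0.16) and S1pr5 (-5.34 ± 0.45), the growth factor receptor Fgfr2 (-4.08 ± 0.20) and the netrin receptor Unc5b (-3.46 ± 0.22) were lower.

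Genes listed for paranodal adhesion and gap junctions were split too, with 5 of 18 tested genes higher, 7 lower and 6 not called. The paranode is where myelin loops attach to the axon. The list median of -0.47 became 0.01 with library size alone, where 6 were higher and 6 lower. The adhesion proteins Nfasc (1.63 ± 0.13), Cadm1 (1.75 ± 0.13) and Cadm2 (2.07 ± 0.13) were higher in newly formed cells, whereas the contactin Cntn2 (-4.25 ± 0.27) and the connexin Gjb1 (-6.99 ± 0.23) were lower. The band 4.1 proteins went in opposite directions. Epb41l2 ranged from 493.9 to 1068 CPM (median 836.6) in newly formed and from 89.2 to 150.5 CPM (median 102.6) in mature cells, while Epb41l3 ranged from 8.22 to 99.3 CPM (median 28.7) against 997.0 to 1418 CPM (median 1211). Their log2 folds were 2.90 ± 0.14 and -5.33 ± 0.20, and neither gene's ranges overlapped.

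Iron handling and metabolic support genes were lower in newly formed cells in 11 of 13 tests, with a median log2 fold of -3.42. With library size alone 8 of 13 were lower, with a median of -2.96. Fth1, the ferritin heavy chain that stores iron, ranged from 609.2 to 2860 CPM (median 1077) in newly formed and from 27718 to 51873 CPM (median 35310.2) in mature cells, a log2 fold of -5.07 ± 0.17. Trf, the iron carrier transferrin, ranged from 51.8 to 754.8 CPM (median 139.6) against 7441 to 12890 CPM (median 9282), and again the highest newly formed value was that of striatum Setd1a+/- replicate 2. Glul, glutamine synthetase, gave -5.15 ± 0.17, Aspa, which releases acetate from N-acetylaspartate, -6.94 ± 0.23, and Slc16a1, the lactate transporter, -3.42 ± 0.43. Ldha, a lactate dehydrogenase subunit, was the member called higher, at 1.12 ± 0.20, and was under 2-fold without striatum Setd1a+/- replicate 1 (0.86).

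**Figure D3:**
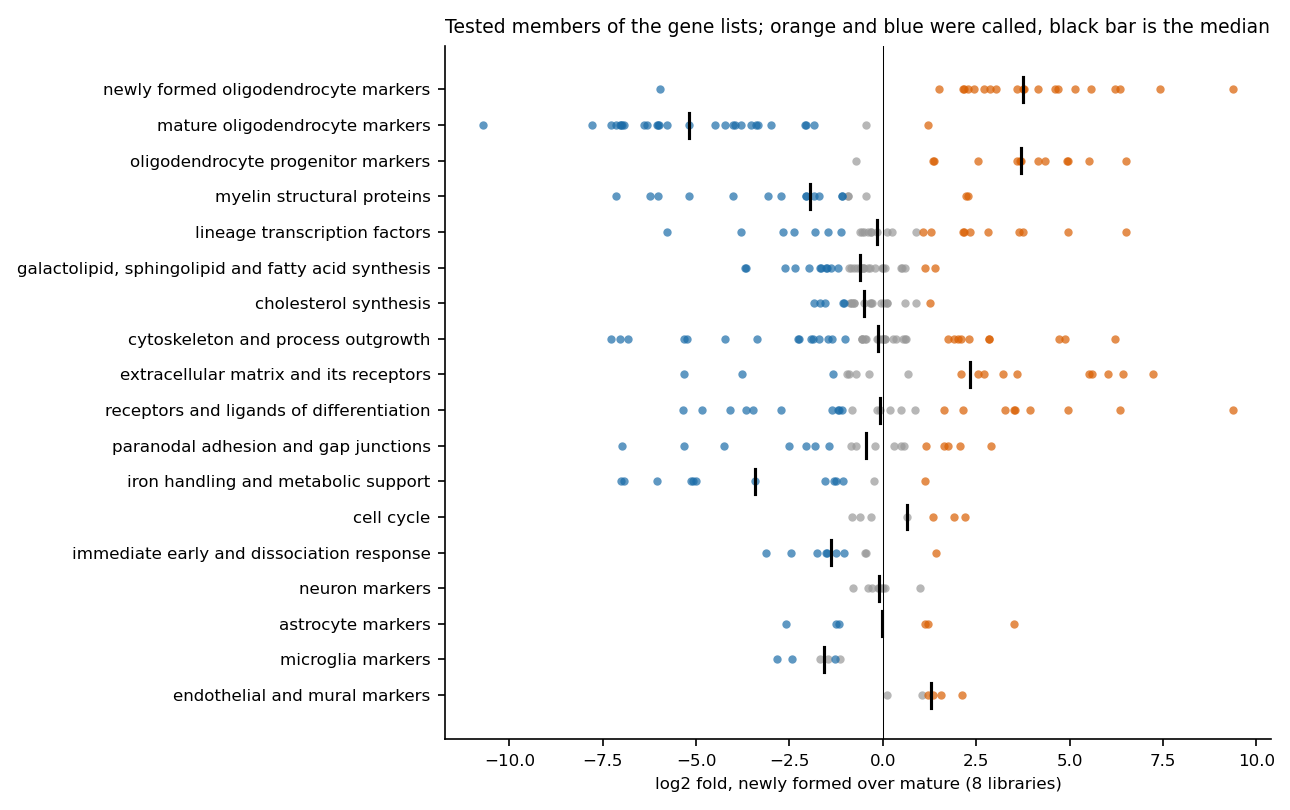
Log2 fold of newly formed over mature cells (horizontal axis) for every tested member of 18 gene lists, with called genes in orange (higher) and blue (lower), genes not called in gray and the list median as a black bar. Genes without UMIs in 1 type, such as Klk6 at the far left, are placed by the fit. Newly formed and progenitor markers lie to the right and mature markers and iron handling genes to the left. The lists of the cytoskeleton, transcription factors, receptors, and paranodal adhesion and gap junctions spread to both sides.

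Of 20 progenitor markers 13 passed the filter on low counts, of which 12 were higher in newly formed than in mature cells and none was lower, with a median log2 fold of 3.69. In the PFC alone 13 of 16 were higher and 1, the proteoglycan Cspg5 (-1.49 ± 0.38), was lower. Of all genes tested there, 13.3% were higher and 15.9% lower. Pdgfra did not pass the filter, and at 1000 UMIs its share of 0.435% of newly formed cells was near the 0.272% of mature cells. Ptprz1, a receptor phosphatase, ranged from 158.9 to 509.6 CPM (median 309.5) against 6.55 to 86.0 CPM (median 14.4) in mature cells, while progenitors had 2329 CPM at the median. The summed level of the list was 1808 to 3041 CPM in newly formed and 131.0 to 512.9 CPM in mature cells. Of the 849 genes called higher in newly formed than mature cells, 225 were also above progenitors in all 8 libraries and 163 were below progenitors in all 8. Of the 869 genes called lower, 88 were above and 150 below progenitors in all 8. The same newly formed sums enter both comparisons, and shares over all genes tested are not set beside these counts. The counts are therefore descriptions. Of 28 cell cycle genes only 7 passed the filter on low counts. Cdk4 (2.20 ± 0.11), Tubb5 (1.89 ± 0.11) and Hmgb2 (1.35 ± 0.26) were higher in newly formed cells, and none was lower. The first 2 are also expressed by cells that do not divide. At 1000 UMIs, Mki67 was found in 0.217% and Top2a in 0 of 460 newly formed cells, against 0.396% and 0.0248% of mature cells. A count of 0 in 460 cells allows up to 0.652% of cells with a UMI at this depth, and sets no limit on cells that express the gene.

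The types also differed in how their transcripts were spread. The 10 genes with the most UMIs took 15.1 to 20.4% (median 18.2%) of all UMIs in newly formed and 25.1 to 29.1% (median 26.7%) in mature cells, so no library overlapped between types. The myelin list took 4.29 to 6.17% of newly formed and 7.16 to 10.5% of mature UMIs. The number of genes found per cell at 1000 UMIs was 635.0 to 678.0 (library medians) in newly formed and 537.0 to 567.0 in mature cells. The difference was 104.6 ± 14.5 genes (SD, n = 8), with newly formed cells higher in 8 of 8 libraries (two-sided exact sign-flip permutation test, p = 0.00781, the smallest the design allows). Unthinned, median UMIs per cell ranged from 1828 to 3971 in newly formed and from 1888 to 2191 in mature cells. The ratio of medians was 1.31 (0.885 to 1.81), with newly formed cells deeper in 7 of 8 libraries and shallower in striatum Setd1a+/- replicate 2 (exact permutation p = 0.0156). The mitochondrial share of UMIs was lower in newly formed cells (library medians 3.24 to 4.37%) than in mature cells (5.12 to 6.99%), with no overlap. More cells of one state and more RNA per cell cannot be told apart in the summed counts.

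The share of newly formed among newly formed plus mature cells was 10.8% (95% Wilson interval 8.83 to 13.2) and 16.5% (13.3 to 20.2) in PFC WT and 24.1% (20.3 to 28.4) and 10.3% (7.47 to 13.9) in PFC Setd1a+/-. In striatum WT it was 6.63% (5.16 to 8.47) and 5.86% (4.18 to 8.16), and in striatum Setd1a+/- 5.30% (4.07 to 6.87) and 24.7% (16.9 to 34.6). The latter library, replicate 2, had 22 newly formed cells and 67 mature cells against 514 to 947 mature cells in the other striatal libraries. The mean share was 15.4% ± 6.44 in the PFC and 10.6% ± 9.41 in the striatum (SD, n = 4), a difference of -4.79 percentage points that was within the spread of libraries (exact permutation p = 0.400). It was -9.49 points without striatum Setd1a+/- replicate 2 (exact permutation p = 0.0857) and -1.90 points without PFC Setd1a+/- replicate 1 (p = 0.743). Taken over all annotated cells the share was lower in every striatal library (0.792 to 1.40%) than in every PFC library (2.32 to 4.67%), a difference of -2.14 points with the smallest exact permutation p that 4 against 4 libraries allow (p = 0.0286). The striatum also yielded more cells of other types, so the denominators answer different questions. Between genotypes the share differed by 6.15 points (Setd1a+/- minus WT within tissue, exact permutation p = 0.500, where 0.0556 is the smallest possible). It ranged from 1.30 (without striatum Setd1a+/- replicate 2) to 11.0 points (without striatum Setd1a+/- replicate 1) over the comparisons that left out 1 library, and it was 2.66 points over all cells of the lineage and 0.295 points over all annotated cells.

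**Figure D4:**
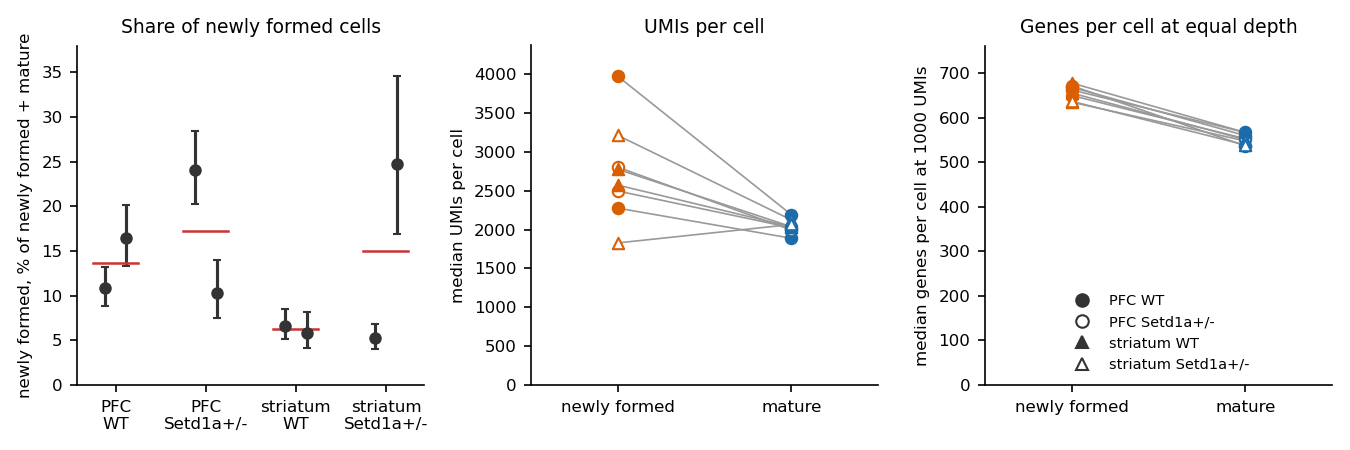
Left, newly formed cells as % of newly formed plus mature cells in each library (points, replicate 1 on the left) with 95% Wilson intervals and group means as red lines. Middle and right, median UMIs per cell and median genes per cell at 1000 UMIs, with lines joining newly formed (orange) and mature (blue) cells of 1 library. Newly formed cells had more genes per cell in all 8 libraries and more UMIs in 7 of 8.

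Whether the newly formed against mature difference itself differed between tissues was tested as an interaction. Of 5978 genes, 24 (0.401%) had a higher and 7 (0.117%) a lower log2 fold in the striatum than in the PFC. The number of calls ranged from 16 (without PFC Setd1a+/- replicate 1) to 39 over the fits that left out 1 library. It was 9 with DESeq2, 10 with cells thinned to 1000 UMIs and 4 without the library term. Of the 31 calls, 5 were kept in all 8 of these fits, those of S100b, Cst3, Ptgds, Fabp5 and Ttll7. Cst3 and Ttll7 are described for this reason and were thus chosen after their values were seen. Because the clusters were drawn separately in each tissue, a true difference between tissues and a different border between clusters cannot be told apart.

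S100b (chr10:76253853-76261159) gave the smallest FDR. In the PFC it was 2043 and 1916 CPM (WT) and 1596 and 1915 CPM (Setd1a+/-) in newly formed cells, against 370.0 and 457.8 CPM and 407.7 and 357.4 CPM in mature cells. In the striatum it was 2151 and 1848 CPM and 2665 and 1768 CPM in newly formed cells, against 1537 and 1902 CPM and 1906 and 1965 CPM in mature cells. Newly formed cells overlapped between tissues, whereas mature cells of the striatum lay above all mature cells of the PFC. The log2 fold was 2.21 in the PFC and 0.23 in the striatum, a difference of -2.01 ± 0.18 (edgeR interaction, FDR = 2.42e-08, -2.12 to -1.90 over the fits without 1 library).

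Cst3, the protease inhibitor cystatin C, was higher in mature than newly formed cells of the PFC in all 4 libraries, at 1434 to 3247 CPM against 575.4 to 1084 CPM. In the striatum mature cells had 732.5 to 1001 CPM and newly formed cells 874.0 to 1538 CPM, so that the ranges overlapped. The interaction was 1.94 ± 0.20 (FDR = 4.79e-07, 1.68 to 2.07 without 1 library). Cst3 is also strongly expressed by microglia, whose 10 listed markers summed in the PFC to 407.8 to 938.9 CPM in mature and 33.7 to 142.4 CPM in newly formed cells, and in the striatum to 80.1 to 105.4 CPM in mature cells. All 10 were called lower in newly formed cells of the PFC, where 15.9% of all genes tested were. The part of these markers in the interaction of Cst3 was not tested. Ptgds (chr2:25466709-25470046), a prostaglandin D synthase, was higher in mature cells in both tissues, but mature cells had 9199.7 to 16412 CPM in the PFC and 3748 to 6803 CPM in the striatum. The newly formed cells had 482.2 to 959.2 CPM and 695.2 to 1208 CPM, and the interaction was 1.53 ± 0.17 (FDR = 1.08e-06, 1.42 to 1.66 without 1 library). This call was lost without the library term (FDR = 0.0753). Fabp5, a fatty acid binding protein, was higher in mature cells of all 4 PFC libraries and in newly formed cells of all 4 striatal libraries. It had log2 folds of -0.73 and 0.92, an interaction of 1.61 ± 0.23 (FDR = 1.51e-04, 1.38 to 1.74 without 1 library), and the call was lost without the library term (FDR = 0.596). Ttll7, a tubulin polyglutamylase, was at 13.8 to 20.4 CPM in newly formed cells of the PFC and at 41.6 to 79.5 CPM in those of the striatum, against 1039 to 1589 CPM in mature cells of both. Here the newly formed cells did not overlap between tissues and the mature cells did. The interaction was 1.97 ± 0.36 (FDR = 0.00427, 1.83 to 2.25 without 1 library), and the call was lost with cells thinned to 1000 UMIs (1.63, FDR = 0.428).

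**Figure D5:**
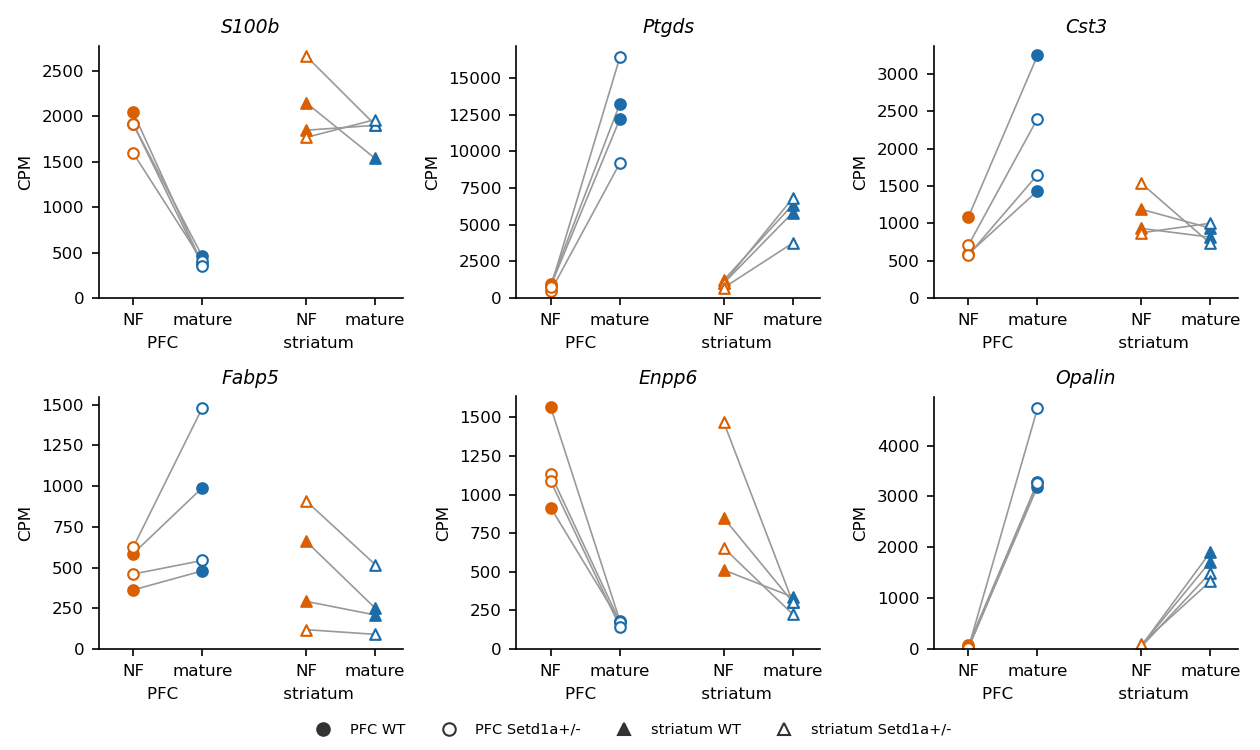
CPM of 6 genes in newly formed (NF, orange) and mature (blue) cells of each library, with lines joining the types of 1 library in the PFC (circles) and striatum (triangles). For S100b, Ptgds, Cst3 and Opalin the mature cells of the tissues do not overlap.

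Stage markers were among the calls that did not hold without every library. The log2 fold of Enpp6 was 2.76 in the PFC and 1.54 in the striatum, a difference of -1.25 ± 0.24 (FDR = 0.00685). The call was lost without PFC WT replicate 1 (-1.10, FDR = 0.0591) or striatum WT replicate 2 (-0.95, under 2-fold). Opalin, a myelin glycoprotein of the central nervous system, had 3191 to 4729 CPM in mature cells of the PFC and 1332 to 1903 CPM in those of the striatum, with no overlap, and an interaction of 2.00 ± 0.42 (FDR = 0.0134). It was lost without PFC WT replicate 1 (1.85), PFC Setd1a+/- replicate 1 (1.65) or striatum WT replicate 1 (2.12). The interaction of Car2 (3.00 ± 0.64) was lost without any 1 of the same libraries (2.74 to 3.03). Over all fits without 1 library it ranged from 2.08 to 4.06, with 2.08 without striatum Setd1a+/- replicate 2, where the call was kept (FDR = 0.0148). That of Gpr17 (1.76 ± 0.42) was lost without these libraries or striatum WT replicate 2 (1.39 to 1.89). That of Tnr (1.92 ± 0.44) was lost without PFC WT replicate 2, PFC Setd1a+/- replicate 1, striatum WT replicate 1 or striatum Setd1a+/- replicate 1 (1.46 to 1.91). The calls of Ptprz1 (2.06 ± 0.42), Stmn4 (1.84 ± 0.36) and Bcan (1.71 ± 0.40) were kept in 7, 6 and 0 of the 8 fits without 1 library. Fos, an immediate early gene, had 27.1 to 98.0 CPM in mature cells of the PFC and 180.6 to 304.0 CPM in those of the striatum, with 8.22 to 62.3 CPM in newly formed cells of either. Its interaction of -2.34 ± 0.44 (FDR = 0.00685) was lost without PFC WT replicate 1 (-1.92, FDR = 0.121). With DESeq2 the calls of Car2, Gpr17 and Tnr were lost, and Fos, Anxa5, Bcat1, Serpind1 and the 6 microglia markers named below were given no adjusted p and were not called. With cells thinned to 1000 UMIs the calls of Car2, Gpr17, Tnr, Opalin, Fos and Anxa5 were lost, and Bcat1, Serpind1 and the same microglia markers could not be tested. The other lower calls among the 6 largest were Anxa5, Bcat1 and Serpind1, with interactions of -4.19, -2.46 and -1.44. The calls of Anxa5 and Bcat1 were each lost without any 1 of 3 libraries (PFC Setd1a+/- replicate 1 and striatum Setd1a+/- replicate 1 for both, striatum WT replicate 2 for Anxa5 and WT replicate 1 for Bcat1), and that of Serpind1 without any 1 of 6. The values without 1 of these libraries were -3.92 to -3.55 for Anxa5, -2.55 to -1.95 for Bcat1 and -1.59 to -1.06 for Serpind1.

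The 6 largest higher calls between tissues were Cx3cr1, C1qc, C1qa, Tyrobp, Selplg and Ctss, which are markers of microglia, the immune cells of the brain. The summed level of the 10 microglia markers was 407.8 to 938.9 CPM in mature cells of the PFC and 80.1 to 105.4 CPM in those of the striatum. In newly formed cells it was 33.7 to 142.4 CPM in the PFC and 39.7 to 441.5 CPM in the striatum, where the value of 441.5 CPM was that of Setd1a+/- replicate 1. In that library 74 of the 85 microglia UMIs of newly formed cells, and all 17 UMIs of C1qa, were in 1 of 53 cells. Without it the interaction of C1qa moved from 5.61 ± 0.95 (FDR = 0.00202) to 2.99 (FDR = 0.655), and the calls of C1qc, Tyrobp and Ctss were lost with values of 3.49, 3.28 and 2.88. The call of Ctss was also lost without PFC Setd1a+/- replicate 1 (4.41), and that of Selplg without PFC Setd1a+/- replicate 2 (4.95) or striatum WT replicate 2 (5.14). Selplg passed the filter on low counts in 4 of the 8 fits without 1 library and was called in 2 of these.

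Between genotypes, 0 of 5978 genes (0%) had a higher and 4 (0.0669%) a lower newly formed against mature difference in Setd1a+/- than in WT mice. At an unadjusted p under 0.05 there were 245 of 5978 genes, a share below the 0.05 that this limit alone would pass. DESeq2 called none (72 at an unadjusted p under 0.05). The 4 called genes encode hemoglobin chains, which belong to red blood cells: Hbb-bt (-10.4 ± 1.28, FDR = 1.01e-05), Hba-a1 (-7.93 ± 1.47, FDR = 0.0108), Hba-a2 (-6.65 ± 1.25, FDR = 0.0108) and Hbb-bs (-7.29 ± 1.47, FDR = 0.0248). Hbb-bs was 4122 and 4.59 CPM in newly formed cells of PFC WT, 30.6 and 16.4 in PFC Setd1a+/-, 3750 and 45.7 in striatum WT, and 15.6 and 39.7 CPM in striatum Setd1a+/-. In newly formed cells the replicate 1 library of WT was thus high in each tissue and the other 6 low. In mature cells Hbb-bs was 209.8 and 582.1 CPM in PFC WT, 1488 and 32.5 in PFC Setd1a+/-, 210.1 and 766.7 in striatum WT, and 2712 and 75.3 CPM in striatum Setd1a+/-, so that there the replicate 1 library of Setd1a+/- was the highest in each tissue. In PFC WT replicate 1, 1562 of 1590 UMIs of Hbb-bs were in 1 of 84 newly formed cells, and in striatum WT replicate 1, 716 of 720 were in 1 of 58. In mature cells of striatum Setd1a+/- replicate 1, 1611 of 4969 were in 1 of 947, and in those of PFC Setd1a+/- replicate 1, 627 of 934 were in 1 of 321. The call of Hbb-bt was kept in all 8 fits without 1 library. Those of Hba-a1 and Hba-a2 were lost without PFC Setd1a+/- replicate 1 (-7.23 and -6.07), striatum WT replicate 1 (-6.48 and -5.04) or striatum Setd1a+/- replicate 1 (-7.47 and -7.12). That of Hbb-bs was lost without any of these or PFC WT replicate 1 (-7.46 to -5.81). No member of the oligodendrocyte lists was called between genotypes in this fit. In the study's methods the genotypes were profiled side by side in each biological replicate. With the replicate number as a block, 9 genes were called lower, the 4 hemoglobin genes included. The other 5, named here after their values were seen, were 9630013A20Rik (-2.38 ± 0.32), Polr3e (-2.17 ± 0.36), Sgk1 (-1.05 ± 0.20), Ppp1r1b (-4.60 ± 1.03) and Meg3 (-1.18 ± 0.28). Ppp1r1b and Meg3 are 2 of the 15 listed neuron markers, and the summed neuron markers in newly formed cells of the striatum were 1776 and 2652 CPM in the WT libraries against 280.5 and 893.9 CPM in those of Setd1a+/-. In mature cells of the striatum they were 898.5 and 980.1 CPM in the WT libraries against 565.5 and 2363 CPM, and their part in these calls was not tested. Of these 9630013A20Rik is among the listed newly formed markers, and its mature level was 9.79 and 8.78 CPM in PFC WT, 199.1 and 36.1 in PFC Setd1a+/-, 23.1 and 1.03 in striatum WT, and 45.3 and 0 CPM in striatum Setd1a+/-. Its genotype interaction without the block was -2.23 (edgeR, FDR = 0.0748).

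Markers of other cells were compared in the same sums. Of 15 neuron markers 9 were tested and none was called (Thy1 was called higher with library size alone). In the striatum alone 1 of 8 tested was called higher in newly formed cells, near the 14.5% of all genes tested there. Without striatum Setd1a+/- replicate 2, 1 of 9 was called higher and the median turned from -0.10 to 0.02. The summed level of neuron markers was 238.5 to 2652 CPM in newly formed and 293.1 to 2363 CPM in mature cells, with the highest value of both types in the striatum. Astrocyte markers summed to 238.4 to 463.5 CPM and 352.0 to 504.3 CPM, with 3 of 6 tested members higher and 3 lower (3 and 1 with library size alone, where their median turned from -0.02 to 0.45). Of 6 tested endothelial and mural markers 4 were higher in newly formed cells, with sums of 394.5 to 789.6 CPM against 170.0 to 595.3 CPM. Of 10 tested immediate early and dissociation genes 7 were lower in newly formed cells and Nr4a1 (1.43 ± 0.25) was higher. With library size alone 5 of these genes were lower and 1 was higher. Their summed level was 1723 to 4467 CPM in newly formed and 3805 to 7675 CPM in mature cells, lower in newly formed cells of all 8 libraries. The part of these genes in the differences above was not tested.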

How the data were processed

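Single cells of the PFC and striatum were captured with the 10x system in 8 libraries of 15154268 to 26277553 UMIs, each of 2 pooled mice. The deposited matrices hold raw UMI counts per gene and cell, made by the authors with Cell Ranger 3.0.2 and Seurat 3.2.0 on mm10 per the submitters' processing notes. The authors removed cells with fewer than 800 genes or more than 10% mitochondrial UMIs, integrated and clustered each tissue separately and named the clusters from markers. Of the deposited cell tables only these names, the library of each cell and its barcode were used here. No further doublet filter was applied.

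UMI counts were summed per library and type. Newly formed and mature sums were compared with edgeR 4.0.16 (R 4.3.3, quasi-likelihood test, TMM factors, genes kept by filterByExpr at a count of 10) with library and type as terms. Tissue and genotype interactions were tested in the same table, and p-values were adjusted by Benjamini-Hochberg over all genes tested. CPM were computed on TMM-scaled totals. The steps were tested on simulated data. P-values measure the spread between libraries of pooled mice. Shares, UMIs and genes per cell were compared over libraries with two-sided exact permutation tests (numpy 2.4.6). Counting intervals of UMI ratios were computed with scipy 1.17.1. DESeq2 1.42.0, library size alone, no filter on low counts, thinned cells and leaving out each library were among the alternatives.

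The text names members of the fixed lists, the 15 genes with the largest called fold in each direction that moved the same way in every library and had a mean of at least 100 CPM, the 6 largest called interactions in each direction, and Setd1a. The members, lists and tests were chosen with earlier results of these data known. RefSeq windows were used for motifs and GENCODE vM21 for gene coordinates (both GRCm38). Values of some listed genes are not reported here.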

Additional observations from a re-analysis of the deposited data

Results flagged for a closer look

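By the test of the interaction (striatum minus PFC, log2 scale), the newly formed against mature difference differed between tissues for 20 named genes listed here. It differed as well for Ptprz1 (2.06), Stmn4 (1.84) and Bcan (1.71). In the following genes the value was negative: S100b at -2.01, Fos at -2.34, Enpp6 at -1.25, Anxa5 at -4.19, Bcat1 at -2.46 and Serpind1 at -1.44. It was positive for Cst3 at 1.94, Ptgds at 1.53, Fabp5 at 1.61, Ttll7 at 1.97, Opalin at 2.00, Car2 at 3.00, Tnr at 1.92 and Gpr17 at 1.76. It was positive as well for the microglia markers C1qc at 6.28, C1qa at 5.61, Tyrobp at 5.42, Ctss at 4.58, Cx3cr1 at 7.21 and Selplg at 5.02, whose mature sums were higher in the PFC. Cx3cr1 passed the filter in 5 of the fits without 1 library and was called in 5 of 5.

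Between genotypes (Setd1a+/- minus WT) the difference was -10.4 for Hbb-bt, -7.93 for Hba-a1, -6.65 for Hba-a2 and -7.29 for Hbb-bs. For Hbb-bt, 216 of 219 UMIs in newly formed cells of PFC WT replicate 1 and 86 of 86 in those of striatum WT replicate 1 were in 1 cell.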

How the results depend on the processing

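None of 130 values of named genes reversed its direction under any alternative run. None of the 1718 genes called over both tissues did in the 15 other fits, which held 826 to 1718 of them. Over these 130 values, 1821 of 1911 alternative values stayed on the same side of the threshold, 84 fell below it and 6 passed it. The interactions of Ptprz1, Stmn4 and Bcan are not among the 130 values. These pool folds between the types, many of them large, with interactions, and leave out runs without a test or an adjusted p. Losses among folds between the types were those of Cyp51, Hmgcs1, Ldha, Fa2h and Olig2. All other losses were of interactions. The 1718 calls over both tissues became 2886 with no filter on low counts, 883 with cells thinned to 1000 UMIs (2693 genes tested) and 2672 at 1.5-fold, and ranged from 1469 to 2231 without 1 library. In the striatum 1128 calls became 2055, 508 with thinned cells and 1908 with at least 30 cells per side (which leaves out Setd1a+/- replicate 2), with 1011 to 1908 without 1 library. In the PFC 2039 calls ranged from 1769 to 1986 without 1 library. The 31 tissue interactions became 9 with DESeq2, 53 with no filter and 10 with thinned cells, with 16 to 39 without 1 library. The 4 genotype interactions became 0 with DESeq2, 7 with library size alone, 9 with no filter and 7 with at least 30 cells per side, with 1 to 9 without 1 library. The lower numbers with thinned cells come with fewer genes tested, and the cause of the other changes was not tested. Over all annotated cells the share of newly formed cells differed between tissues by -2.14 points (exact permutation p = 0.0286) against -4.79 (p = 0.400), and the latter ranged from -9.49 to -1.90 without 1 library. The genotype difference in share ranged from 1.30 to 11.0 points, the log2 ratio of UMIs from 0.32 to 0.47 and the difference in genes per cell from 100.2 to 107.1. Genes with few UMIs in the 460 newly formed cells could not be tested, and absence there is not shown.

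Types were paired within libraries because each library gave both. With no replicate block, that is without the library term, there were 1254 calls over both tissues, 1548 in the PFC, 797 in the striatum and 4 tissue interactions, those of S100b, Cst3, Ttll7 and C1qc. The calls of Ptgds and Fabp5 (FDR = 0.0753 and 0.596), Enpp6, Opalin, Gpr17, Car2, Tnr, Fos, Anxa5, Bcat1, Serpind1 and Ctss between tissues were lost. In the study's methods WT and Setd1a+/- were profiled side by side in each biological replicate, which the replicate numbers were taken to mark. Within each genotype and tissue, the newly formed against mature difference of replicate 2 was subtracted from that of replicate 1. Over 5978 genes, the resulting values of WT and Setd1a+/- correlated at -0.037 in the PFC and 0.028 in the striatum. These differences leave out any shift that both types of a library share, so the correlations cannot decide whether the genotypes were paired. The low level of Gstp1 described above was shared by PFC libraries of both genotypes with the same replicate number. The pairing was taken from the methods, and shifts of whole libraries were not tested for it. With the replicate block added there were 9 genotype interactions, and the p of the genotype difference in share stayed at 0.500 (exact permutation).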
